A study of Mus with 6 samples.

Results

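The C/EBP family comprises transcription factors that share a basic leucine zipper (bZIP), a domain with which they pair and bind DNA. Its members were selected on their gene names, namely Cebpa, Cebpb, Cebpd, Cebpg and Cebpz, and the family was chosen from values of these same libraries, in which Cebpb was among the genes most elevated with anti–VEGF-B. The comparison of the treatments is therefore given for the members as a description. No p-value is given for them, and their calls are counted only beside those of all genes. Of the 5 members, 3 (Cebpb, Cebpg and Cebpz) were found among the 10995 protein-coding genes of the table, and all 3 had a mean of at least 1 FPKM. Cebpa and Cebpd were not analysed here.

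Naive CD4+ T cells from the spleen of WT mice were stimulated through CD3 (antibody at 5 μg/mL) and CD28 (2 μg/mL), with IL-2 at 100 U/mL. For 3 days, 3 samples received an antibody against VEGF-B, a growth factor of the VEGF family (1 μg/mL), and 3 received normal goat IgG at the same dose. The authors' accounts differ on whether stimulation began before these antibodies were added. The libraries are called aVEGFB 1 to 3 and IgG 1 to 3, after their labels. All 6 samples were thus activated, and resting cells were not analysed here. The age of the mice and the number of animals behind the samples are not given in the sources used here, so that p-values measure only the spread between these samples, which may be technical. The file, titled as raw data, does not name its unit, and the values, which are not whole numbers, were taken as FPKM, which scale the reads of a gene to its length and to the library, and which allow levels of different genes to be compared. Their sums over the table ran from 260058 to 276622, and the number of reads is unknown. All 10 markers of CD4+ T cells had values, with Cd4 between 64.0 and 74.6 FPKM. Of the CD8+ T or NK cell markers, Cd8a was at no more than 0.182 FPKM and Cd8b1 at 2.27 to 4.51 FPKM, and both overlapped between the groups. Of the 14 myeloid markers 4 were analysed here, and their summed level ran from 11.4 to 12.9 FPKM with anti–VEGF-B and from 12.8 to 28.8 with IgG. The upper end was IgG 3, in which Lyz2, the lysozyme gene of macrophages and neutrophils, was at 16.4 FPKM against 3.26 to 4.19 in the other 5 libraries. Of the 10 CD4+ T cell markers, 3 were called lower and 0 higher, against 23.8% and 4.87% over all genes. They summed to 655 to 718 FPKM with anti–VEGF-B and 694 to 837 with IgG. Much of that difference was Il2ra, an activation gene whose mean was 117 FPKM in the IgG group and 58.3 in the other, and the other 2 called were Cd3e and Cd5. The part of these markers in the results was not tested. In such bulk samples, fewer cells of a type and less RNA per cell cannot be told apart.

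C/EBP proteins are best known for driving the maturation of myeloid cells and adipocytes and the acute-phase response of the liver. C/EBPβ, formerly NF-IL6, responds to cytokines and to stress and can activate or repress, depending on whether a long or a truncated protein is translated from its mRNA. C/EBPγ lacks a strong activation domain and works as a partner of other bZIP proteins, among them C/EBPβ and ATF4. Cebpz carries the family's name but encodes a protein without a leucine zipper, a member of the CBF/NOC group that takes part in making ribosomes. In T cells, C/EBPβ is known for its binding to cytokine gene promoters, including that of Il4.

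Cebpb lies on chromosome 2 of GRCm38, from 167688915 to 167690418 on the plus strand, and its transcript is not spliced. Its level was 70.5, 83.8 and 85.1 FPKM in the anti–VEGF-B samples and 34.96, 28.2 and 35.8 in the IgG samples. The groups lay far apart, with the lowest anti–VEGF-B sample 1.97 times the highest IgG sample. The mean was 79.8 ± 8.07 FPKM in the former group and 33.0 ± 4.18 in the latter (SD, n = 3 each), a ratio of 2.42. On the log2(FPKM + 1) scale, which slightly understates a change, the fold change was 1.25 with a standard error of 0.11. This placed Cebpb at rank 4 of the 8816 genes tested, whose mean reached 1 FPKM or more, of which 13 were higher by 1 or more on this scale. Cebpb was already well expressed with IgG, above 87.2% of the listed genes or more in each library, and above at least 95.3% in each anti–VEGF-B library. Among the 900 genes with a mean between 30 and 100 FPKM it ranked 2 by fold change, and 2 of these genes were higher by at least 1 and 9 lower by at least 1.

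**Figure D1:**
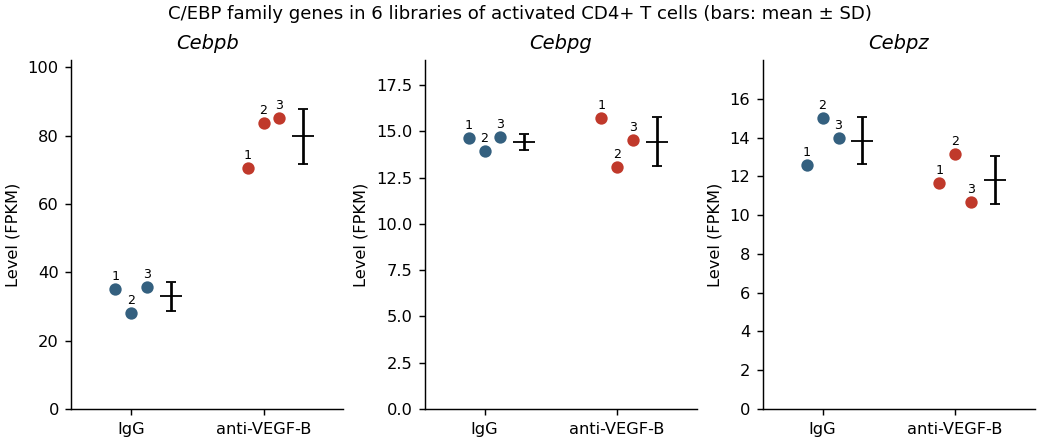
Level in FPKM of Cebpb, Cebpg and Cebpz in each library (points, numbered by replicate), with the mean and SD of each group beside them (n = 3 each). Cebpb lay between 28.2 and 35.8 FPKM with IgG and between 70.5 and 85.1 with anti–VEGF-B, while the groups overlapped for Cebpg and Cebpz.

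Cebpg lies on chromosome 7, from 35046422 to 35056573 on the minus strand. It had 15.7, 13.1 and 14.5 FPKM with anti–VEGF-B and 14.6, 13.9 and 14.7 with IgG. The 3 IgG samples fell inside the range of the anti–VEGF-B samples, and the means were 14.4 ± 1.33 and 14.4 ± 0.424 FPKM (SD, n = 3 each). This gave a log2 fold change of -0.00067 with a standard error of 0.088, or 0.15 above the median of all genes, which was -0.15. Cebpa is the nearest member by position, 62.7 kb from Cebpg in the RefSeq annotation of GRCm38.

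Cebpz lies on chromosome 17, from 78919006 to 78937070 on the minus strand. Its values were 11.7, 13.1 and 10.7 FPKM with anti–VEGF-B and 12.6, 15.0 and 14.0 with IgG. The groups overlapped only through aVEGFB 2, which exceeded IgG 1. The means were 11.8 ± 1.24 and 13.8 ± 1.21 FPKM (SD, n = 3 each), with a log2 fold change of -0.21 (standard error 0.10) that lay 0.060 below the median of all genes. The fold change of Cebpz exceeded that of 41.6% of the genes tested, that of Cebpg exceeded 71.0%, and that of Cebpb 99.95%.

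Of the 3 members, 1 (Cebpb) was called higher at a limma adjusted p under 0.05 (Benjamini-Hochberg over all genes tested) and 0 were called lower. Over all 8816 genes, 4.87% were called higher and 23.8% lower. At an unadjusted limma p under 0.05 the members' counts were the same. No share over all genes is given at that unadjusted threshold, so nothing is read from unadjusted counts, here or for the lists below. All anti–VEGF-B values lay above all IgG values for 1 of 3 members and below them for 0, against 10.5% and 38.5% of all genes. The members' counts fall on 3 genes, and since Cebpb was picked for its place in this comparison, nothing is read from these counts. The split of all calls was 429 higher and 2099 lower, but it depended on how libraries were scaled. Quantile normalization gave 880 and 913, centring on the median 1365 and 807, and cyclic loess 852 and 938. Scaled to Actb, it was 365 and 1309. These scalings moved the median of all genes from -0.15 to values between -0.096 and 0.049. The members kept their order under each of these scalings. Median centring and scaling to Actb apply the same factor to all genes of a library, so that they could hardly change this order. The log2 fold change of Cebpb ran from 1.25 to 1.45 over them, that of Cebpz from -0.15 to -0.011, and that of Cebpg, which was -0.00067 without further scaling, from 0.063 to 0.20.

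**Figure D2:**
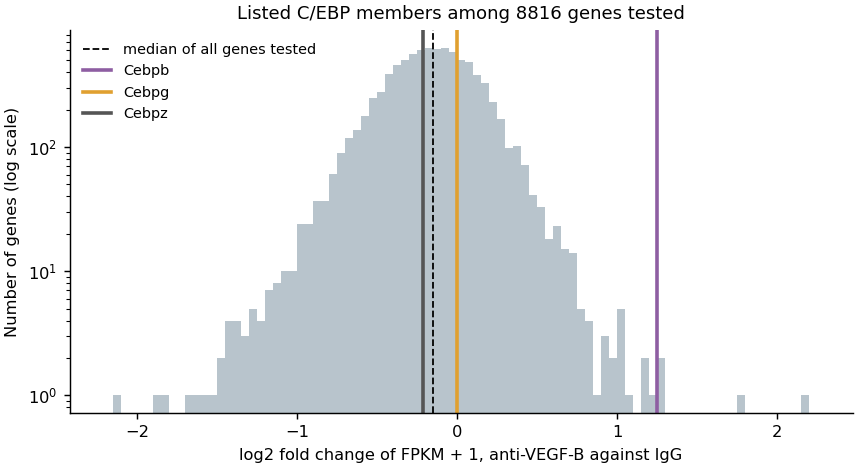
Number of genes (log scale) by log2 fold change of FPKM + 1 (anti–VEGF-B over IgG) for the 8816 genes tested, with solid lines at the 3 members and a dashed line at the median of all genes (-0.15). Cebpb, at 1.25, stood in the sparse upper end of the distribution, while Cebpg and Cebpz stood within its centre.

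Leaving out 1 library at a time moved the log2 fold change of Cebpb between 1.15, without IgG 2, and 1.34, without aVEGFB 1. Without IgG 3, the library with the highest myeloid markers, it was 1.31. In the same 6 fits Cebpg ran from -0.060 to 0.065 and Cebpz from -0.28 to -0.15. Since Cebpb was chosen for its rise in these same libraries, these fits describe its spread and do not test the rise. Cebpg lay on either side of 0.

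**Figure D3:**
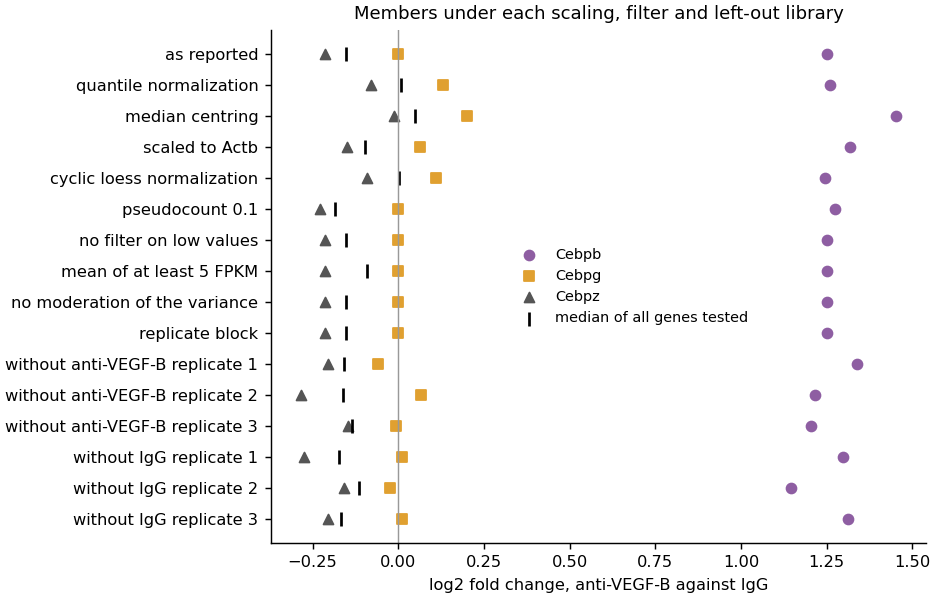
log2 fold change of each member (symbols) and the median of all genes tested (ticks) as reported and under the other scalings, pseudocount, filters, models and left-out libraries. Cebpb stayed between 1.15 and 1.45, Cebpg between -0.060 and 0.20 and Cebpz between -0.28 and -0.011.

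The relative levels of the 3 listed members within a library do not change with a scaling factor between libraries. Cebpz, whose protein has no leucine zipper, is counted among them by its name. Cebpb held 56.2%, 49.3% and 55.6% of the summed FPKM of the 3 members in the IgG samples and 72.0%, 76.2% and 77.1% in the anti–VEGF-B samples. Its share was therefore the largest of the 3 in each library, and lower in each IgG sample than in each anti–VEGF-B sample. The means were 53.7 ± 3.79% with IgG and 75.1 ± 2.72% with anti–VEGF-B (SD, n = 3 each). Cebpg held 23.6 ± 0.803% with IgG and 13.7 ± 2.13% with anti–VEGF-B, and Cebpz 22.7 ± 3.15% and 11.2 ± 1.31%. The summed level of the 3 members was 62.2, 57.1 and 64.4 FPKM with IgG and 97.9, 110.0 and 110.3 with anti–VEGF-B. Most of that difference came from Cebpb, whose mean was 46.8 FPKM higher, while those of Cebpg and Cebpz differed by 0.028 and -2.02 FPKM.

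**Figure D4:**
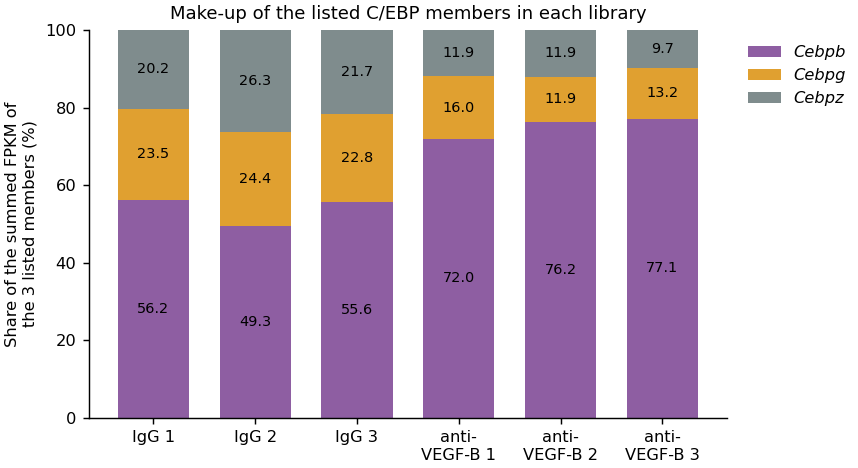
Share of Cebpb, Cebpg and Cebpz in their summed FPKM in each of the 6 libraries, in percent. Cebpb made up 49.3% to 56.2% in the IgG libraries and 72.0% to 77.1% in the anti–VEGF-B libraries, with smaller shares for both other members in the latter.

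C/EBPβ and C/EBPγ can pair, so their relative levels were also followed. Cebpb transcripts were 4.49, 6.42 and 5.85 times as abundant as those of Cebpg with anti–VEGF-B, against 2.39, 2.02 and 2.44 times with IgG. Within its group the lowest ratio was that of aVEGFB 1, which had the least Cebpb and the most Cebpg of the 3. To Cebpz the ratio was 6.80 ± 1.03 with anti–VEGF-B and 2.41 ± 0.470 with IgG. For Cebpg over Cebpz the groups overlapped, at 0.994 to 1.36 with anti–VEGF-B and 0.928 to 1.16 with IgG. Within the groups, the coefficient of variation over the samples was 10.1% and 12.7% for Cebpb (anti–VEGF-B and IgG), 9.21% and 2.94% for Cebpg and 10.5% and 8.72% for Cebpz.

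Of the members, 2 share bases in the deposited annotation with a gene on the opposite strand. The library kit was stranded, but the sources used here do not say that the quantification used strand, so that reads in these stretches are uncertain. The locus of Tmem189 on chromosome 2, from 167642608 to 167689822, overlaps 908 of the 1504 bases of Cebpb, whereas RefSeq ends it at 167661544, short of Cebpb. Tmem189, named here for its position after the values were seen, had 15.7, 16.5 and 13.8 FPKM with anti–VEGF-B and 16.0, 15.1 and 21.0 with IgG, and its groups overlapped (log2 fold change -0.16, limma adjusted p = 0.350). It lay below Cebpb in each library. Cebpzos, the gene named as the opposite strand of Cebpz, overlaps it by 1301 bases. It had 3.14, 3.20 and 2.41 FPKM with anti–VEGF-B and 3.75, 3.79 and 3.77 with IgG, lower in each anti–VEGF-B sample but not called (-0.29, limma adjusted p = 0.0755). Cebpz was 3.35 to 4.43 times as abundant as Cebpzos, with overlapping groups.

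Of 19 bZIP relatives and partners of C/EBP proteins, 16 were tested, and 3 were called higher and 3 lower, or 18.8% each (4.87% and 23.8% over all genes). Their median log2 fold change was -0.011, against -0.15 for all genes. This split moved with the scaling, as did that of all genes. After median centring it was 6 higher and 0 lower (7 and 2 at an unadjusted limma p under 0.05). Over all genes that scaling gave 1365 and 807. Quantile normalization or cyclic loess gave 4 and 1 for the list, and scaling to Actb 3 and 1. Of the genes not tested, 2 were not analysed here, among them Cebpe, and 1 had a mean under 1 FPKM. Atf4, the effector of the integrated stress response and a partner of C/EBPγ, had 756, 763 and 770 FPKM with anti–VEGF-B and 628, 526 and 590 with IgG. The 3 anti–VEGF-B samples lay close together and above all IgG samples, and Atf4 rose by 0.40 (limma adjusted p = 0.0127). Without aVEGFB 3 it did not pass (0.39, limma adjusted p = 0.0534). Nfil3, a bZIP repressor with roles in helper T cells, was higher at 536 to 549 FPKM against 369 to 426 (0.43, limma adjusted p = 0.00845), and passed in each fit that left out 1 library. Fosl2, an AP-1 subunit, rose by 0.30 (limma adjusted p = 0.0191), with 170 to 177 FPKM against 130 to 147.

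The 3 partners called lower were Fos, Jund and Batf, which all belong to AP-1 or pair with it. Not all such genes of the list fell. The groups overlapped for Jun (-0.042, limma adjusted p = 0.742) and Junb (0.020, limma adjusted p = 0.865), and Fosl2 was called higher. Batf3 was lower in each anti–VEGF-B sample but not called (-0.27, limma adjusted p = 0.101). Fos fell by 0.65 (limma adjusted p = 0.0230), from 2.91 to 4.43 FPKM in the IgG samples to 1.43 to 2.56 with anti–VEGF-B. Jund fell by 0.44 (limma adjusted p = 0.0234), with 47.0 to 55.2 FPKM against 63.6 to 84.3. Batf, which acts with IRF4 in T helper cells, fell by 0.48 (limma adjusted p = 0.0489). Fos did not pass after quantile normalization, median centring or cyclic loess, Jund after median centring or scaling to Actb, and Batf after any of these 4. Leaving out 1 library, Batf passed only without IgG 3 (adjusted p otherwise from 0.0532 to 0.154). Fos did not pass without aVEGFB 3, IgG 1 or IgG 2 (0.0536 to 0.0765), Jund without aVEGFB 1 or 3 (0.0550 and 0.0814), and Fosl2 without aVEGFB 2 or 3 or IgG 2 (0.0506 to 0.0647). For the whole list the counts were 1 higher and 0 lower without aVEGFB 3 (3 and 2 at an unadjusted limma p under 0.05), 3 and 1 without aVEGFB 1, and 2 and 1 without IgG 2. The calls over all genes also fell in these fits, from 429 higher and 2099 lower. They were 164 and 695 without aVEGFB 3, 312 and 1367 without aVEGFB 1, and 258 and 1101 without IgG 2.

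Ddit3, the gene of the inhibitory C/EBP relative CHOP, had 77.3, 74.4 and 73.4 FPKM with anti–VEGF-B and 71.0, 75.8 and 73.2 with IgG, with overlapping groups (0.034, limma adjusted p = 0.725). After median centring its adjusted p was 0.0483, with a log2 fold change of 0.23. The ratio of Cebpb to Ddit3 was 0.911, 1.13 and 1.16 with anti–VEGF-B and 0.492, 0.372 and 0.489 with IgG. Cebpb was thus near Ddit3 in level in the anti–VEGF-B samples and below it in each IgG sample. The ratio of Cebpg to Atf4 was lower in each anti–VEGF-B sample (0.0171 to 0.0208) than in each IgG sample (0.0233 to 0.0265).

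Genes that set the expression, translation or turnover of C/EBP proteins came next. All 20 were tested, with 1 called higher (5%) and 3 called lower (15%), against 4.87% and 23.8% over all genes. Their median was -0.077, against -0.15 for all genes. These counts moved with the scaling, as did those of all genes. Median centring gave 6 higher and 0 lower (9 and 2 at an unadjusted limma p under 0.05) with a median of 0.12. Over all genes it gave 1365 and 807, with a median of 0.049. Quantile normalization or cyclic loess gave 3 and 2, with medians of 0.082 and 0.066 against 0.0077 and 0.0019 over all genes. Scaling to Actb gave 1 and 1. Trib3, a pseudokinase induced by ATF4 and CHOP, was higher (0.29, limma adjusted p = 0.0243), with 43.1 to 48.7 FPKM against 35.3 to 38.2. Trib2, whose protein leads C/EBPα to degradation, was lower (-0.41, limma adjusted p = 0.0192), at 6.65 to 7.01 FPKM against 8.25 to 10.5. Calr, whose protein calreticulin binds C/EBP mRNAs besides its role as a chaperone, was lower at 77.5 to 84.0 FPKM against 102 to 121 (-0.43, limma adjusted p = 0.00961). Gsk3a, a kinase of the family that phosphorylates C/EBPβ, was lower (-0.33, limma adjusted p = 0.0224). Of these, Calr passed in each fit that left out 1 library, but not after median centring (-0.23, limma adjusted p = 0.0651). Trib3 did not pass without any single library other than IgG 1 (adjusted p from 0.0510 to 0.0740), Trib2 without aVEGFB 2 or 3 or IgG 2 or 3 (0.0521 to 0.0582), and Gsk3a without aVEGFB 3 or IgG 2 (0.0831 and 0.0631). The list had 1 gene called lower without aVEGFB 3 or IgG 2, and 0 called higher without aVEGFB 2 or 3 or IgG 2 or 3 (1 to 3 at an unadjusted limma p under 0.05). Over all genes, 695 were called lower without aVEGFB 3 and 1101 without IgG 2, against 2099 with all libraries. Called higher were 286, 164, 258 and 328 without aVEGFB 2, aVEGFB 3, IgG 2 and IgG 3, against 429.

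Creb1, an activator of the Cebpb promoter, had 2.70, 7.42 and 6.14 FPKM in the anti–VEGF-B libraries, with aVEGFB 1 just below the IgG libraries (2.73 to 2.92) and the others above them (0.66, limma adjusted p = 0.0788). It and Stat3 are named outside the rule, after their values were seen. Stat3, which relays IL-6 signals to Cebpb, had 127 to 140 FPKM against 114 to 125 (0.16, limma adjusted p = 0.133).

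Among coactivators and other protein partners, 16 of 18 were tested. Of these, 0 were called higher and 2 lower (12.5%), against 4.87% and 23.8% over all genes. Their median was -0.15, that of all genes. At an unadjusted limma p under 0.05 the counts were 1 and 6, for which no share over all genes is given. Each of the 4 other scalings left 1 gene called lower, and median centring also called 1 higher. Over all genes these scalings called between 807 and 1309 lower. Hdac1, a histone deacetylase gene, had 24.6, 25.0 and 22.5 FPKM with anti–VEGF-B and 37.2, 45.1 and 36.8 with IgG. The groups were well separated, and Hdac1 fell by 0.70 (limma adjusted p = 0.00491), also in each fit that left out 1 library. Ep300, an acetyltransferase that C/EBPβ recruits, fell by 0.30 (limma adjusted p = 0.0475), but it did not pass without aVEGFB 1 or 3 or IgG 2 or 3 (adjusted p from 0.115 to 0.162), fits in which the list had 1 gene called lower. Without IgG 3 the list also had 1 called higher. Over all genes, 1367, 695, 1101 and 1525 were called lower without aVEGFB 1, aVEGFB 3, IgG 2 and IgG 3. Without IgG 3, 328 were called higher.

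Genes that C/EBP factors are known to activate in immune cells were mostly those of myeloid cells and were little seen here. Of 29 listed, 17 were not analysed here and 5 had a mean under 1 FPKM. Of the 7 tested, 0 were called higher and 3 lower (42.9%), against 4.87% and 23.8% over all genes, and the median was -0.50. The list's counts were the same at an unadjusted limma p under 0.05. Each of the 4 other scalings called 2 lower and 0 higher, with medians from -0.45 to -0.30, against -0.096 to 0.049 over all genes. These 3 were cytokine genes of T helper cells. Tnf had 16.8, 16.2 and 14.8 FPKM with anti–VEGF-B and 26.4, 32.7 and 26.3 with IgG, and fell by 0.79 (limma adjusted p = 0.00471). Il4, the cytokine gene of type 2 helper cells, had 8.31, 6.64 and 7.52 FPKM against 10.3, 17.2 and 12.6 (-0.73, limma adjusted p = 0.0138). Both were lower in each anti–VEGF-B sample than in each IgG sample, the reverse of Cebpb, and both passed in each fit that left out 1 library. Il10, an anti-inflammatory cytokine gene, had 2.58, 2.75 and 2.097 FPKM against 2.94, 4.98 and 3.96 (-0.50, limma adjusted p = 0.0414). Il10 did not pass without any single library other than IgG 1 (adjusted p from 0.0642 to 0.138).

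Targets of C/EBP factors in fat, liver and growth arrest gave 4 tested genes of 15, with a median of -0.32. Of these, 0 were called higher and 1 lower (25%), against 4.87% and 23.8% over all genes. At an unadjusted limma p under 0.05 there were 1 and 2. Scd1, the stearoyl-CoA desaturase gene, was the gene called (-0.72, limma adjusted p = 0.00975), with 1.89 to 2.11 FPKM against 3.05 to 4.86. The other 3 did not pass. Without IgG 1 the counts were 1 and 2, after median centring 1 and 1, and with quantile normalization or cyclic loess 0 and 2 (1 and 3 at an unadjusted limma p under 0.05). Over all genes they were 396 and 2071 without IgG 1 and 1365 and 807 after median centring. Quantile normalization gave 880 and 913 over all genes, and cyclic loess 852 and 938.

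ATF4 and CHOP bind, together with C/EBP proteins, composite sites in genes of amino acid and stress metabolism. Of 20 such genes 17 were tested, with a median of -0.36. Of these, 1 was called higher (5.88%) and 8 lower (47.1%), against 4.87% and 23.8% over all genes. Those called lower were 5 with quantile normalization or cyclic loess and 4 with median centring, scaling to Actb or a mean of at least 5 FPKM. The last filter left 13 genes of the list and 4927 genes in all. In these settings the calls lower over all genes also fell, from 2099 to between 807 and 1309. After median centring the list median was -0.16, against 0.049 over all genes. The genes called lower included Herpud1, an endoplasmic reticulum stress gene (-1.03, limma adjusted p = 0.00950), Sesn2, a brake on mTORC1 (-0.70, limma adjusted p = 0.00711), Aldh18a1, of proline synthesis (-0.79, limma adjusted p = 0.0137), and Slc7a5, an amino acid transporter gene (-0.80, limma adjusted p = 0.0175). Herpud1 had 4.84, 6.16 and 4.50 FPKM with anti–VEGF-B and 10.9, 16.2 and 8.57 with IgG. The groups were separated for it, and Herpud1 and Sesn2 passed in each fit that left out 1 library, while Aldh18a1 and Slc7a5 did not pass without aVEGFB 3 (limma adjusted p = 0.0516 and 0.0613). Slc3a2, whose protein pairs with that of Slc7a5 in the membrane, was the gene called higher (0.33, limma adjusted p = 0.0257), with 54.5 to 65.4 FPKM against 44.7 to 50.8. It did not pass without aVEGFB 1 or 2 or IgG 2 or 3 (adjusted p from 0.0556 to 0.0781). The list had 3 genes called lower without aVEGFB 3 and 5 without IgG 2, and 0 called higher without aVEGFB 1 or 2 or IgG 2 or 3 (2 or 3 at an unadjusted limma p under 0.05). Over all genes, 695 were called lower without aVEGFB 3 and 1101 without IgG 2. Called higher were 312, 286, 258 and 328 without aVEGFB 1, aVEGFB 2, IgG 2 and IgG 3.

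For Cebpz the related genes were those of other NOC proteins, which act in ribosome assembly, and the factors that bind the CCAAT box. All 10 were tested, with a median of -0.28. Of these, 1 was called higher (10%) and 4 lower (40%), against 4.87% and 23.8% over all genes. Quantile normalization, median centring and cyclic loess each left 1 called lower, with medians of -0.095, -0.082 and -0.11, and scaling to Actb 3. Over all genes these scalings called 913, 807, 938 and 1309 lower, with medians of 0.0077, 0.049, 0.0019 and -0.096. Noc4l (-0.57, limma adjusted p = 0.0246), Noc3l (-0.51, limma adjusted p = 0.0147), Noc2l (-0.40, limma adjusted p = 0.0167) and Pdcd11, of ribosomal RNA processing (-0.48, limma adjusted p = 0.0171), were lower. Cebpz itself was at -0.21, beside the list median of -0.28. It lay nearer to 0 than these 4, but they were named because they were called, so nothing is read from that. Nfyb, a subunit of the CCAAT-binding factor NF-Y, had 72.3, 70.7 and 77.6 FPKM with anti–VEGF-B and 54.5, 50.2 and 61.2 with IgG (0.41, limma adjusted p = 0.0129). Without aVEGFB 3 the list had 1 gene called lower and 0 higher (4 and 1 at an unadjusted limma p under 0.05), and Nfyb then had 0.37 (limma adjusted p = 0.0518). Noc3l passed in each fit that left out 1 library, but not after quantile normalization or cyclic loess. Noc4l and Noc2l did not pass without aVEGFB 3 (limma adjusted p = 0.0782 and 0.0641) and Pdcd11 did not either (0.0676), and Noc4l did not pass without IgG 2 (0.0712), where Noc2l just missed the threshold. Without IgG 1 the list had 2 genes called higher. Over all genes, 396 were called higher without IgG 1, while without aVEGFB 3 there were 164 called higher and 695 lower.

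In all, the 7 lists held 131 genes, of which 33 were not analysed here, 8 had a mean under 1 FPKM and 90 were tested. Of these, 6 were called higher (6.67%) and 24 lower (26.7%), near the shares over all genes, with a median of -0.19. This split moved with the scaling, as did that of all genes. Median centring gave 18 higher and 9 lower (1365 and 807 over all genes), and scaling to Actb 6 and 13 (365 and 1309). Quantile normalization and cyclic loess each gave 9 and 14 (880 and 913, and 852 and 938, over all genes). Without aVEGFB 3 the counts were 2 and 10 (164 and 695 over all genes). Without IgG 2 they were 3 and 14 (258 and 1101), and without aVEGFB 2 they were 3 and 22 (286 and 1430).

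**Figure D5:**
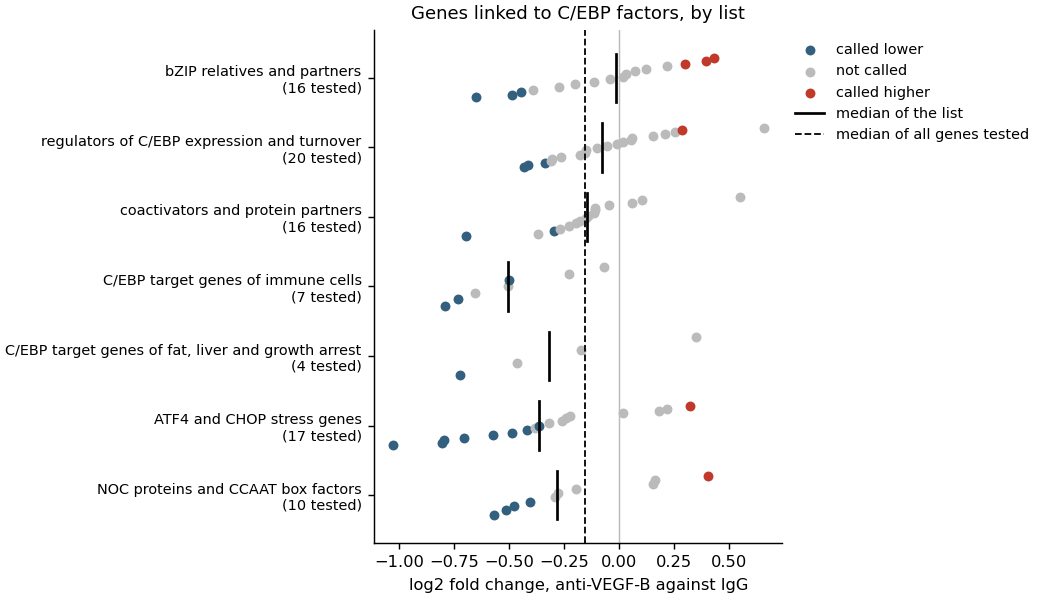
log2 fold change (anti–VEGF-B over IgG) of each tested gene in the 7 lists linked to C/EBP factors, coloured by call at a limma adjusted p under 0.05, with the median of each list (solid) and of all genes tested (dashed, -0.15). The medians ran from -0.50 for target genes of immune cells to -0.011 for bZIP relatives and partners.

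The genes whose levels followed each member most closely were found by Pearson's r of log2(FPKM + 1) over the 6 libraries. These r values describe 6 points in 2 groups that share libraries and scaling, so that for Cebpb they largely restate the difference between the groups. Nearest to Cebpb were Egln1, the oxygen sensor PHD2 (r = 0.996), Whamm (0.995), Zfp777 (0.995), Dnajb4, a heat shock co-chaperone gene (0.995), and Hdac5 (0.994). Dnajb4 had a difference like that of Cebpb, with 11.9, 13.4 and 12.9 FPKM with anti–VEGF-B and 4.65, 4.11 and 5.04 with IgG. Egln1 was far more abundant and differed less, with means of 380 and 263 FPKM (log2 fold change 0.53). Nearest to Cebpg were Gps1 (0.986), Cox17 (0.960) and Pdlim1 (0.960), each with a log2 fold change within 0.025 of 0. Nearest to Cebpz were Vav1, a signalling gene of the T cell receptor (0.998), Ube2h (0.997) and Arrb2 (0.995). Of the 8816 genes, 235 had an r over 0.95 with Cebpb, 225 with Cebpz and 3 with Cebpg.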

How the data were processed

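RNA of mouse CD4+ T cells was sequenced in 3 samples with anti–VEGF-B and 3 with IgG, grouped by their labels. The authors aligned reads to GRCm38 (mm10) with HISAT2, used StringTie and Ballgown, and mention raw counts. Which output they deposited is not stated. The deposited values, in a file titled as raw data, are not whole numbers and were taken here as FPKM. Read counts were not used here, so the depth behind each value is unknown, and low values did not fall on steps that give whole reads. No column of sample values was left out.

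FPKM were analysed as log2(FPKM + 1) in 8816 genes, those whose mean reached 1 FPKM. The groups were compared with limma 3.58.1 (R 4.3.3), two-sided, with Benjamini-Hochberg adjustment over all genes tested and a threshold of 0.05. The code was tested on simulated data. Of 200 genes changed by 0.5 on the log2 scale 38.5% were called, and of 200 changed by 1, 94%. A gene not called may therefore still have changed. Far fewer genes changed there than were called here, so that these shares need not hold for these data. An exact permutation test of 3 against 3 samples cannot go below p = 0.1 and was not used. The members and lists were chosen with earlier results of these data known. Named genes were the members, Cebpe, Ddit3, Atf4 and Cebpzos, up to 4 genes per list and direction with the lowest p, and the 5 (Cebpb) or 3 (others) genes most correlated with a member. Marker genes, Tmem189, Creb1, Stat3, Jun, Junb and Batf3 were named after their values were seen. Other scalings, pseudocount, filters, variance models, thresholds and left-out libraries gave 16 alternatives. Gene positions are those of the deposited table, and of RefSeq where named.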

Additional observations from a re-analysis of the deposited data

How the results depend on the processing

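Of 429 genes called higher and 2099 lower, quantile normalization gave 880 and 913, median centring 1365 and 807, loess 852 and 938, a limit on size (0.5 on the log2 scale) with an unadjusted p under 0.05 gave 123 and 998, and no moderation of the variance 6 and 6. Scaling to Actb left 1309 called lower and a mean of at least 5 FPKM 989. Leaving out 1 library gave 164 to 396 higher and 695 to 2071 lower, the lowest without aVEGFB 3. The log2 fold change of Cebpb was 1.45 after median centring. That of Cebpg was 0.13 with quantile normalization, 0.20 with median centring and 0.11 with loess, and that of Cebpz was -0.080 and -0.011 after the first 2 of these. Of 6 list genes called higher, median centring gave 18, the size limit 2, no moderation 0 (10 at an unadjusted p under 0.05) and leaving out 1 library 2 to 8. Of 24 called lower, quantile normalization and cyclic loess gave 14, median centring 9, Actb 13, a mean of at least 5 FPKM 12, the size limit 12, no moderation 0 (27 unadjusted) and leaving out 1 library 10 to 22. The cause of these shifts was not tested.

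With the replicate number as a block, 469 genes were called higher and 2109 lower, and 9 and 30 of the list genes. Deviations of samples with the same number correlated at -0.030, 0.11 and 0.089, so that the numbers were not taken to pair the samples. None of the list genes called and named in the text changed direction under an alternative, and Nfil3, Fosl2, Atf4, Trib3, Hdac1, Tnf, Il4, Scd1, Herpud1, Sesn2, Slc7a5, Aldh18a1, Slc3a2 and Nfyb passed under each of the 4 scalings. Trib2, Ep300 and Il10 passed under none of these, Gsk3a and Noc2l not after median centring or scaling to Actb, and Noc4l and Pdcd11 under that to Actb alone. The read depth is unknown, so that the counting error of low genes such as Noc3l or Fos could not be estimated.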
